A study of Mus musculus with 6 samples.

Results

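The alpha and beta crystallin genes were examined in RNA of the whole mouse eye at postnatal day 21, as 8 genes of the 22558 in the deposited gene table, chosen by name: Cryaa, Cryab, Cryba1, Cryba2, Cryba4, Crybb1, Crybb2 and Crybb3. A group of 3 wild type libraries was compared with 3 libraries of mice homozygous for loss of BC027072, the mouse ortholog of the human retinitis pigmentosa gene PCARE, which encodes a photoreceptor ciliary protein. Both groups are labelled strain C57BL/6, the RNA is total RNA of the eye, and the series title names C57BL/6J as the comparison strain. The labels do not say how the null allele was made. They also do not state that each replicate came from its own animal, and the p-values then cover only the spread between these samples, which may be technical.

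Crystallins are the proteins that fill the fibre cells of the lens and give it its refractive power. The alpha crystallins are small heat shock proteins that act as chaperones and hold damaged proteins in solution. The beta crystallins are structural proteins that share a fold with the gamma crystallins and assemble into dimers and larger oligomers, and they are divided into acidic (A) and basic (B) chains. Lens fibre cells keep their proteins for life, and mutations in crystallin genes are a known cause of cataract. Some crystallins are also made outside the lens: Cryab in muscle, glia and pigment epithelium, and several beta crystallins in the retina.

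The libraries held 5695530 to 21815950 estimated fragments. BC027072 was represented by 2251 to 5854 fragments in the wild type libraries and by 2 or 3 in the knockout libraries. Xist and Y-linked fragments marked knockout replicates 1 and 3 as male and the other 4 libraries as female, so the male libraries were all knockout. Of 8 photoreceptor markers, 1 was higher in the 3 knockout libraries and 7 were lower, among the latter the disc rim genes Prph2 (log2 fold change −0.66 ± 0.06, SE; edgeR adjusted p = 5.25e-06) and Rom1 (−0.64 ± 0.07, SE; adjusted p = 1.3e-05). The summed levels of the 8 were 22532 to 23180 CPM in the controls and 14303 to 16040 CPM without BC027072, and their part in the crystallin values was not tested. CPM are fragments scaled to the TMM-adjusted library total. In bulk RNA of a whole organ, fewer cells of a type and less RNA per cell cannot be told apart.

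The 8 genes took 8.63 ± 0.692% of all fragments in wild type and 8.50 ± 0.209% in knockout (mean ± SD, n = 3 each). By library the share was 7.998%, 8.51% and 9.37% in wild type, while the knockouts had 8.70%, 8.51% and 8.28%. The knockout values lay within the wild type range. The 95% exact (Clopper-Pearson) interval of the first wild type value ran from 7.99% to 8.01%, so counting error was far below the spread between libraries. Such intervals cover counting error only. The 2 alpha genes made up 3.69 ± 0.305% and 3.61 ± 0.182% of the library, the 3 acidic beta genes 2.25 ± 0.197% and 2.28 ± 0.0403%, and the 3 basic beta genes 2.69 ± 0.203% and 2.60 ± 0.0590%, wild type first. None of these sums stood apart between the genotypes.

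Each member was among the most abundant transcripts of the eye, ranked by fragments between 1 and 21 of all genes in every library. Alpha, beta and gamma crystallins together filled 14 or 15 of the 20 leading places in each library. The fewest fragments behind any member were 22734, for Cryba2 in knockout replicate 2, and the most were 595562, for Cryaa in wild type replicate 1.

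Of the 8 members, 2 were lower in the knockout and none was higher (edgeR quasi-likelihood test, Benjamini-Hochberg adjusted p under 0.05 over 14919 genes). Of all genes tested, 6.24% were called, 3.35% lower and 2.89% higher. None was higher at an unadjusted p under 0.05 either, nor in DESeq2 or in limma. Both falls were in basic beta chains, Crybb1 and Crybb3, and the third basic chain, Crybb2, was not called. The median log2 fold change of the 8 was −0.043, against 0.0023 over all genes tested.

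**Figure D1:**
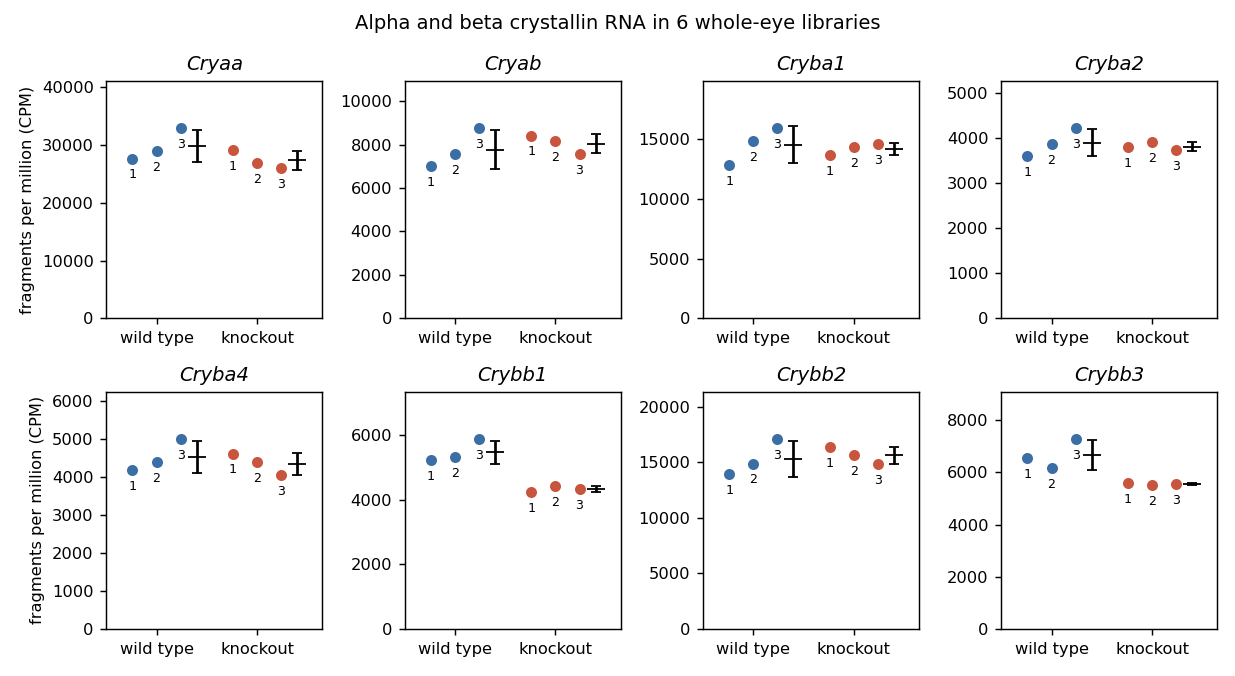
Levels in CPM (fragments scaled to the TMM-adjusted library total, linear axes from 0) of the 8 alpha and beta crystallin genes in each library, wild type in blue and BC027072 knockout in red. Numbers under points are replicate numbers, and the black bar is the mean ± SD of 3 libraries. Wild type replicate 3 was the highest library for all 8 genes, and only in Crybb1 and Crybb3 did all 3 knockout libraries lie below all 3 wild type libraries.

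Crybb1, a basic beta chain whose regulatory region is widely used to drive transgenes in lens fibre cells, fell most. Wild type replicates 1 to 3 had 5232, 5317 and 5880 CPM, and knockout replicates 1 to 3 had 4251, 4416 and 4341 CPM. All 3 knockout libraries lay below the lowest wild type library. The means were 5476 ± 352 and 4336 ± 82.5 CPM (SD, n = 3 each), a log2 fold change of −0.34 ± 0.06 (SE; edgeR adjusted p = 0.00301). Knockout was thus 79.2% of wild type, with a 95% interval of 72.2% to 86.8%. The fall passed with any 1 library left out (adjusted p = 0.00077 to 0.0297). It did not pass once library sex was in the model (−0.31, adjusted p = 0.257) or in the female libraries alone (−0.31, adjusted p = 0.243), although the fold stayed close to that over all 6 libraries. In both fits the genotype difference rests on 1 knockout library, and in the second the wild type libraries alone supply the spread. Neither the lost call nor the fold in these fits can therefore tell sex and genotype apart.

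Crybb3, another basic beta chain, stood at 6539, 6157 and 7273 CPM in wild type, against 5593, 5506 and 5548 CPM without BC027072. Here too the groups did not overlap, and the knockout libraries lay close together. The means were 6656 ± 567 and 5549 ± 43.6 CPM, a log2 fold change of −0.26 ± 0.07 (SE, n = 3 each; edgeR adjusted p = 0.0240). Knockout was 83.4% of wild type (95% interval 75.7% to 91.8%). Crybb3 was less firm than Crybb1: without wild type replicate 3 or knockout replicate 1, 2 or 3 the adjusted p was 0.0650, 0.0546, 0.150 and 0.0917. With sex modelled its log2 fold change was −0.27 (adjusted p = 0.384), and in the female libraries alone −0.28 (adjusted p = 0.369). Groups that do not overlap in this way, lower in the knockout, were found for 11.7% of all genes tested, and higher in the knockout for 11.6%.

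The 2 genes that fell lie next to members that were not called. The members on chromosome 5 form close pairs in the mm9 build of the deposited files: Cryba4 (112675553 to 112681522) and Crybb1 (112684841 to 112698602) are 3318 bases apart, and Crybb2 (113487285 to 113497786) and Crybb3 (113504859 to 113510604) are 7072 bases apart. Cryaa is on chromosome 17 (31814890 to 31818669), Cryab on chromosome 9 (50560863 to 50564738), Cryba1 on chromosome 11 (77532234 to 77538795) and Cryba2 on chromosome 1 (74936518 to 74939709). Hspb2, a small heat shock gene known as the divergent neighbour of Cryab and named here for its position, ends 403 bases from it and had 8.69 ± 1.08 CPM in wild type, against 9.27 ± 0.319 CPM (log2 fold change 0.11 ± 0.13, SE; edgeR adjusted p = 0.722).

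The promoter windows of Crybb1 and Crybb3, which fell, are shown with those of Cryba4, the uncalled neighbour of Crybb1, and of Cryaa, the most abundant member. They are RefSeq windows of the GRCm38.p6 build, a later build than that of the deposited files, with 250 bases before the gene start and 50 after, written 5′ to 3′ on the strand of the gene. The windows are chr5:112255570-112255869 (plus strand) for Crybb1, chr5:113081535-113081834 (minus strand) for Crybb3, chr5:112252469-112252768 (minus strand) for Cryba4 and chr17:31677681-31677980 (plus strand) for Cryaa. Capitals mark matches to TATAAA, the letters of the TATA box, and to TGCTGA, part of the recognition element of Maf factors, on either strand.
Crybb1: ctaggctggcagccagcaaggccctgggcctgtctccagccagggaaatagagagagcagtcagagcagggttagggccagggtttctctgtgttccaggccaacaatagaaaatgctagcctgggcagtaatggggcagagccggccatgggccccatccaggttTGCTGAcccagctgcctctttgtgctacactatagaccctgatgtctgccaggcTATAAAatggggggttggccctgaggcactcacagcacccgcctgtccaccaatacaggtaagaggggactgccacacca
Crybb3: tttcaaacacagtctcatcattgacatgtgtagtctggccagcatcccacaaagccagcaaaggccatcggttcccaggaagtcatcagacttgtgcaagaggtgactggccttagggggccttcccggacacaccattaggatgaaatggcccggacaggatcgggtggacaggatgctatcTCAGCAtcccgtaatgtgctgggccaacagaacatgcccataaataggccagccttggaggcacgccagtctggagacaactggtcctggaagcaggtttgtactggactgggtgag
Cryba4: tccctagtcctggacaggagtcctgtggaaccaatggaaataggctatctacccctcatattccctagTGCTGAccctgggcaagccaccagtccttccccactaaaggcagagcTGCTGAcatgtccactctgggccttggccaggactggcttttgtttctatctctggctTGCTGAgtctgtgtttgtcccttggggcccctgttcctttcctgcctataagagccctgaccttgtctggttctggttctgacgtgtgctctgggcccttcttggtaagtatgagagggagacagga
Cryaa: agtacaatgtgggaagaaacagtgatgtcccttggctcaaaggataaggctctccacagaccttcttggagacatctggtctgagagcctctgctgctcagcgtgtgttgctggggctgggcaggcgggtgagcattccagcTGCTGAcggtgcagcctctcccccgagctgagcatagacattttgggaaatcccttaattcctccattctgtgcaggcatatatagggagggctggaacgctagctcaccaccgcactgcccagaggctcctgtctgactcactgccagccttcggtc

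Of the 8 members, 6 had a RefSeq window at the start of the counted transcript, and Cryab had no entry. The Crybb2 window began 1351 bases upstream of the GENCODE transcript that matches the span of the deposited locus, and was not used. TGCTGA was present in all 6 windows, against 19.5% of 32851 windows of the same length. In Crybb1 it began 84 bases and in Crybb3 67 bases upstream of the start, and Cryba4 held it 3 times. TATAAA was present in 3 of the 6 (Cryba1, Cryba2 and Crybb1), against 13.6% of all windows. It began 23 bases upstream of the start in Cryba1 and 30 bases upstream in Crybb1. In Cryba2 it began 3 bases upstream and lay across the start itself. The palindromic heat shock unit GAANNTTC was in none of the 6 and in 7.86% of all windows. None of these matches overlapped another, and the genes that fell and those not called both held TGCTGA. A match of letters describes the window and does not show that a factor binds there.

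The authors' deposited table gives FPKM of 10273 in wild type and 7652 in knockout for Crybb1 (q = 0.166). For Crybb3 the authors' deposited table gives 13163 and 10339 FPKM (q = 0.354). Neither was called there, and in the authors' deposited table the q-values of the other 6 members ran from 0.804 to 0.992. FPKM scale fragments by transcript length and library size. The members' FPKM spread more between wild type libraries than their fragments did: the SD was 14.7% to 38.5% of the mean in FPKM and 6.43% to 11.4% in CPM. In wild type replicate 2 the deposited FPKM was 2.07 times (median of the 8) the CPM divided by transcript length, against medians of 1.24 to 1.56 in the other 5 libraries. The part of this in the q-values was not tested.

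**Figure D2:**
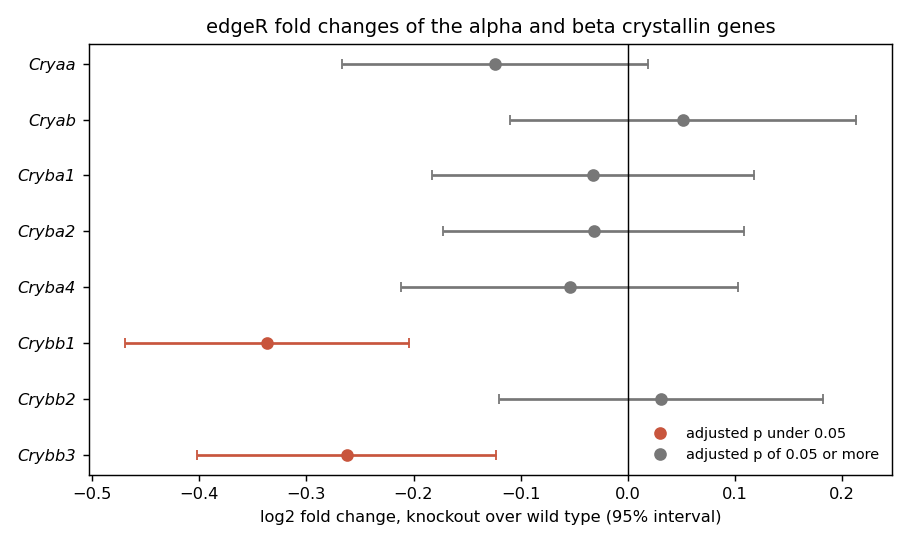
Fitted difference between genotypes for each of the 8 genes, as edgeR's log2 fold change with positive values higher in knockout (x axis), with bars for the 95% interval. Red points passed an adjusted p of 0.05: Crybb1 at −0.34 and Crybb3 at −0.26. The intervals of the other 6 genes cross 0.

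The 3 acidic beta chains were not called. Cryba1, from whose mRNA the chains beta-A3 and beta-A1 are both translated, had 12859 to 15914 CPM across the controls and 13662 to 14612 CPM across the knockouts. Its log2 fold change was −0.033 ± 0.071 (SE; 95% interval −0.18 to 0.12; edgeR adjusted p = 0.863). Cryba2 had 3613 to 4218 and 3730 to 3911 CPM (−0.032, 95% interval −0.17 to 0.11). Cryba4 had 4176 to 4997 and 4044 to 4617 CPM (−0.054, 95% interval −0.21 to 0.10). In each of the 3 genes the knockout libraries overlapped the wild type libraries. Each of the 3 intervals overlapped that of Crybb3 (−0.40 to −0.12), and a difference between these genes and Crybb3 was not tested.

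Crybb2, the most abundant of the basic chains by fragments, had 13941, 14900 and 17094 CPM in wild type, against 16388, 15679 and 14876 CPM. The knockout libraries fell inside the wild type range. Its log2 fold change was 0.031 ± 0.071 (SE; 95% interval −0.12 to 0.18; edgeR adjusted p = 0.871).

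Neither alpha chain was called. Cryaa, the alpha-A chain found almost only in the lens, was the most abundant gene of every library, with 27656, 28960 and 32881 CPM in wild type, against 29164, 26930 and 26033 CPM. The groups overlapped through knockout replicate 1, and the log2 fold change was −0.12 ± 0.07 (SE; 95% interval −0.27 to 0.019; edgeR adjusted p = 0.350). Cryab, the stress-inducible alpha-B chain, had 7010, 7549 and 8747 CPM in wild type, against 8417, 8175 and 7562 CPM (0.052 ± 0.076, 95% interval −0.11 to 0.21, adjusted p = 0.789). The knockout libraries lay inside the wild type range.

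Per kilobase of transcript, wild type levels fell into an upper group of 3 genes and a lower group of 5. Cryaa stood at 25368 ± 2312 CPM per kilobase, Cryba1 at 21281 ± 2268 and Crybb2 at 21149 ± 2232 (mean ± SD, n = 3). Below them were Crybb3 at 8186 ± 717, Cryab at 6556 ± 750.2, Crybb1 at 6273 ± 403, Cryba4 at 6013 ± 566 and Cryba2 at 5557 ± 433. Cryba1 and Crybb2 overlapped between libraries, as did each neighbouring pair from Cryab down to Cryba2. Inside each wild type library, Crybb1 lay above Cryba4 and Cryba4 above Cryba2 (5993, 5553 and 5147 in replicate 1). The order of Cryba1 and Crybb2, and that of Cryab and Crybb1, differed between wild type libraries. In knockout the upper group held the same 3 genes, and Crybb1 moved from sixth to last place at 4967 ± 94.4 CPM per kilobase, with no overlap with Cryba2 above it. In the deposited FPKM the upper group was also Cryaa, Crybb2 and Cryba1 in both genotypes. Cryab was last in wild type FPKM and Crybb1 last in knockout FPKM, each overlapping its neighbour.

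The balance between the chains can be read inside each library, where scaling between libraries plays no part. As a share of the fragments of the 8 genes, Crybb1 made up 6.23 ± 0.203% in wild type and 5.21 ± 0.227% in knockout (SD, n = 3 each), and Crybb3 7.58 ± 0.460% and 6.66 ± 0.187%. Crybb2 made up 17.4 ± 0.214% and 18.8 ± 0.329%, and Cryab 8.82 ± 0.185% and 9.66 ± 0.253%. For these 4 genes the groups did not overlap. No share over all genes was computed on this measure. In plain CPM, 11.7% of all genes tested were lower and 11.6% higher in knockout without overlap. The shares of a total are bound to each other, so a lower share of some genes raises the others. Cryaa (33.9 ± 0.225% and 32.8 ± 0.971%), Cryba1, Cryba2 and Cryba4 overlapped between the genotypes.

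The ratios of 3 member pairs did not overlap between the genotypes. The ratio of Cryaa to Cryab fragments was 3.95, 3.84 and 3.76 in wild type, against 3.46, 3.29 and 3.44. Every knockout library lay below every wild type library, although neither gene was called alone. The ratio of Crybb2 to Crybb3 was 2.13, 2.42 and 2.35 in wild type and 2.93, 2.85 and 2.68 in knockout. The ratio of Cryba4 to Crybb1, added after their values were seen, was 0.798, 0.826 and 0.850 in wild type and 1.09, 0.997 and 0.932 in knockout. For each of these 3 ratios the two-sided exact permutation test gave p = 0.1 (adjusted p = 0.1 over the 3), the smallest that 3 libraries against 3 allow. The ratios of Crybb2 to Crybb3 and of Cryba4 to Crybb1 have the called genes as denominators. Their separation therefore adds no evidence separate from those calls. As the Cryba4 to Crybb1 pair was picked from these same values, its p is a description only. How often other gene pairs separate in this way was not computed.

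**Figure D3:**
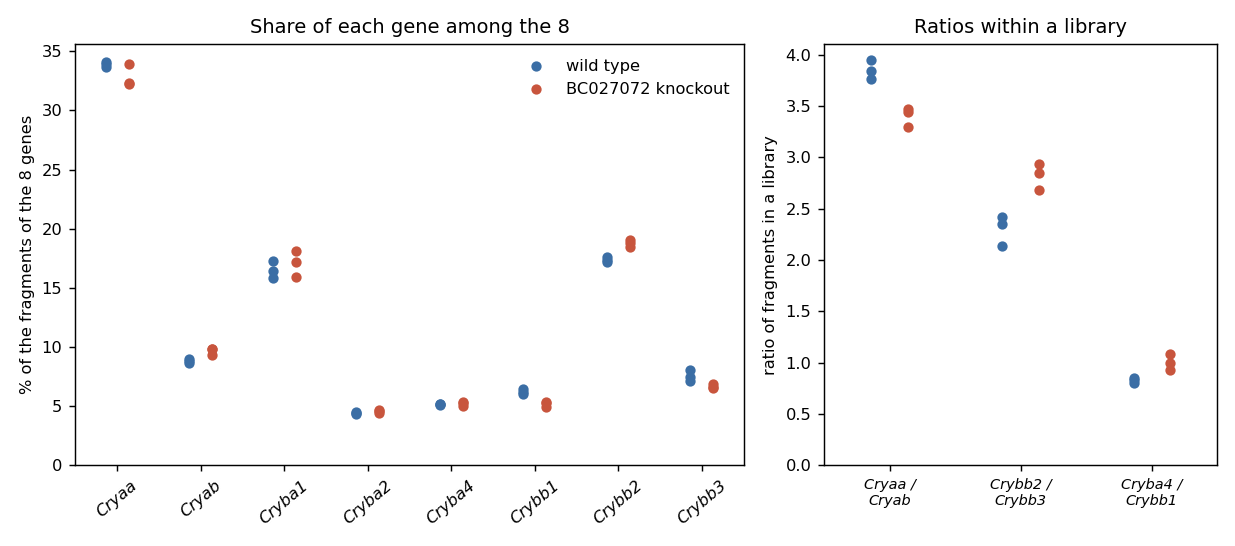
Left, the percent of the fragments of the 8 genes that each gene took in each library. Right, the ratio of fragments of a pair of genes in each library. Wild type is blue and BC027072 knockout red, with 1 point per library and linear axes from 0. The ratio of Cryaa to Cryab lies between 3.76 and 3.95 in wild type and between 3.29 and 3.46 in knockout, and the ratio of Crybb2 to Crybb3 is higher in every knockout library.

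Of the 8 members, 7 had 1 transcript in the deposited isoform table. Crybb3 had a pair that share their locus: NM_021352 (828 bases) held 76.6% to 85.3% of the gene's estimated fragments in wild type and 72.9% to 85.8% in knockout, and NM_001159650 (758 bases) held the rest. The shares overlapped between genotypes. Tested across 16546 isoforms, of which 1.57% were called (1.02% lower and 0.55% higher), none of the 9 member isoforms passed in edgeR, and 2 had an unadjusted p under 0.05: the isoform of Crybb1 (−0.33, adjusted p = 0.0586) and NM_021352 of Crybb3 (−0.24, adjusted p = 0.291). No other tool was run on isoforms.

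The fall of Crybb1 and Crybb3 was then set beside the amount of lens RNA. Sums of 8 lens fibre markers (Mip, Lim2, Gja3, Bfsp1, Bfsp2, Grifin, Lgsn and Birc7) were 7729 to 9117 CPM in the controls and 7701 to 7997 CPM in the knockouts, and were highest in wild type replicate 3, as were all 8 members. All 8 markers were detected and none was called in edgeR, with 2 at an unadjusted p under 0.05, both lower in knockout. The median log2 fold change of these 8 markers was −0.13. DESeq2 called 1 of the 8, Bfsp2, and limma none. Sums of 6 lens epithelium markers were 643 to 698 CPM and 590 to 674 CPM. Most of this sum came from Aqp1 (319 ± 15.6 CPM in wild type, SD) and Slc38a3 (253 ± 7.25 CPM), while Foxe3 had 2.45 ± 1.11 CPM. Slc38a3 and Foxe3 are named here for their level only. None of the 6 passed in edgeR, DESeq2 or limma and 3 had an unadjusted p under 0.05. Of these, Cdh1, E-cadherin, had a positive log2 fold change (0.26 ± 0.08, SE; edgeR adjusted p = 0.0858), and the lens factor gene Pitx3 (−0.49 ± 0.16, adjusted p = 0.0994) and the water channel gene Aqp1 (−0.22 ± 0.08, adjusted p = 0.108) had negative ones. Pitx3 and Aqp1 were named after their values were seen, and the median of the list was −0.14. Divided by the lens fibre sum of the same library, Crybb1 was lower in knockout by a log2 difference of −0.25 and Crybb3 by −0.17, and for both the groups did not overlap. By the same measure Cryab differed by 0.14, Crybb2 by 0.12 and Cryba2 by 0.056, upward and without overlap. On this measure 16.6% of all genes tested were higher and 3.9% lower in knockout without overlap. Cryaa, Cryba1 and Cryba4 differed by −0.036, 0.058 and 0.033, with overlap.

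The other gene groups of the lens were counted in the same fit. Of 8 gamma crystallin genes, 3 fell and none rose: Cryga from 7322 ± 771 to 5394 ± 226 CPM (fold change on the log2 scale −0.44 ± 0.07, SE; edgeR adjusted p = 0.00115), Crygf (−0.27 ± 0.07, adjusted p = 0.0400) and Crygn (−0.25 ± 0.06, adjusted p = 0.0147). Of the 8, 5 had an unadjusted p under 0.05, DESeq2 called 4 and limma on log2 CPM 2, and the median was −0.20. Cryge (−0.24 ± 0.07, adjusted p = 0.0638) and Crygd (−0.16 ± 0.07, adjusted p = 0.237) were the uncalled genes at that unadjusted p in edgeR. Both were lower in knockout and were named after their values were seen. Reads may be shared between Cryga to Crygf, which are close copies, and all 3 called genes were lost once sex was modelled. Without wild type replicate 3 or knockout replicate 1, 2 or 3 the adjusted p of Crygf was 0.133, 0.0504, 0.112 and 0.196, and without wild type replicate 3 or knockout replicate 2 or 3 that of Crygn was 0.0736, 0.0638 and 0.0587. Of 14 genes of the lens fibre membrane and cytoskeleton, none passed in edgeR or in limma, 4 had an unadjusted p under 0.05 and DESeq2 called 1, again Bfsp2, which encodes the beaded filament protein phakinin (1264 ± 95.7 to 1093 ± 9.78 CPM, −0.21 ± 0.07, edgeR adjusted p = 0.0820). The smallest p of the list was that of Tmod1, an actin-capping gene, at 29.8 ± 0.131 and 35.3 ± 2.56 CPM (0.25 ± 0.08, adjusted p = 0.0733). Their median log2 fold change was −0.13.

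Of 18 regulators of crystallin or lens genes tested, 1 fell and none rose. Tdrd7, an RNA granule gene whose loss causes cataract, fell from 873 ± 48.7 to 718 ± 12.3 CPM (−0.28 ± 0.06, SE; edgeR adjusted p = 0.0137), and was lost once sex was modelled (adjusted p = 0.319). It did not pass without wild type replicate 2 or 3 or knockout replicate 3 (adjusted p = 0.0643, 0.0555 and 0.0518). Beside Tdrd7, 2 genes of the list had an unadjusted p under 0.05, named after their values were seen: Pitx3, given above, at 5.89 to 7.29 CPM in the controls and 4.30 to 4.91 CPM in the knockouts, and Six3, an eye field factor gene, at 20.1 to 24.3 and 24.7 to 28.5 CPM (0.26 ± 0.10, edgeR adjusted p = 0.149). The groups did not overlap for either gene. Of all genes tested, 11.7% were lower and 11.6% higher in knockout without overlap in CPM. The median of the list was −0.058.

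Of the 6 small heat shock genes tested beside the alpha crystallins, 1 fell and none rose. Hspb7, which is expressed mainly in muscle, fell from 27.1 ± 5.40 to 16.9 ± 2.61 CPM (−0.63 ± 0.14, SE; edgeR adjusted p = 0.0105). Without knockout replicate 1 or 2, or with sex modelled, its adjusted p was 0.0608, 0.0629 and 0.114. At edgeR's unadjusted p under 0.05 were 2 genes of the list, Hspb7 and Hspb6, the latter named after its values were seen. Hspb6 had a positive log2 fold change (0.30 ± 0.09, SE; edgeR adjusted p = 0.0611), and the median of the list was 0.067. Of 7 other genes that carry a crystallin name or a related domain, Aim1, which encodes a beta-gamma crystallin domain protein, rose (38.2 ± 3.62 to 46.8 ± 3.17 CPM, 0.31 ± 0.08, adjusted p = 0.0377), as did Crym, a thyroid hormone-binding protein that is no lens crystallin in the mouse (27.1 ± 0.659 to 62.2 ± 0.587 CPM, 1.20 ± 0.07, adjusted p = 2.49e-08). Aim1 did not pass in DESeq2 (adjusted p = 0.0699), in limma on log2 CPM (0.0519), or without wild type replicate 1 or 2 or knockout replicate 1, 2 or 3 (0.0696, 0.158, 0.165, 0.0609 and 0.0849). Of the pair, only Crym passed once sex was modelled (adjusted p = 3.74e-05).

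**Figure D4:**
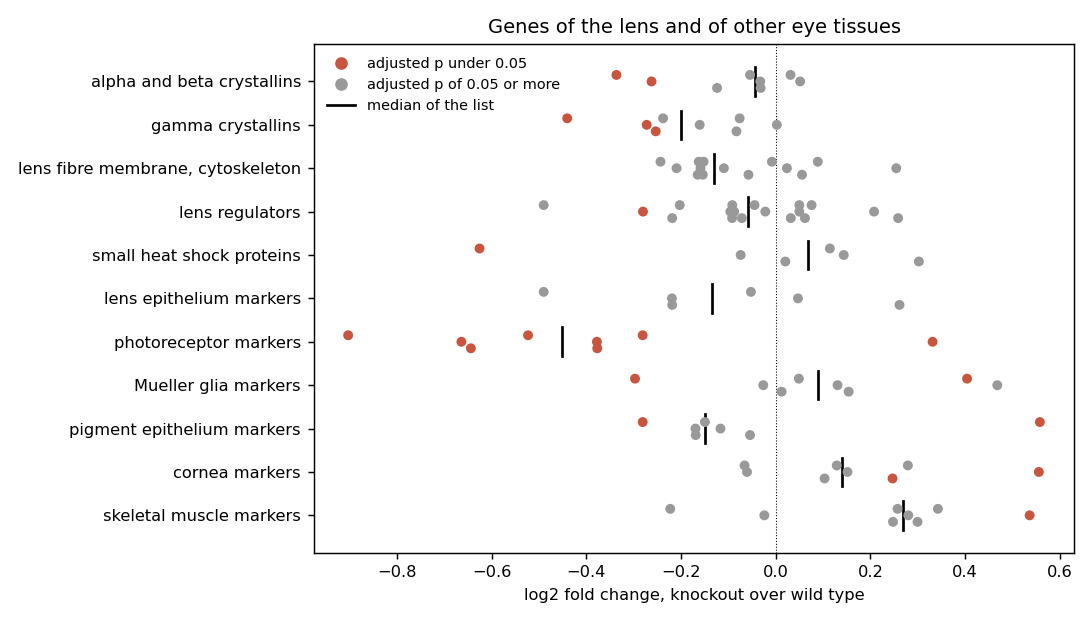
Fitted log2 fold change, positive where higher in knockout (x axis), for the tested genes of each list shown, 1 point per gene, red where edgeR's adjusted p was under 0.05 and grey otherwise, with a black bar at the median. The 2 red points of the alpha and beta crystallins are Crybb1 and Crybb3. The median was −0.043 for the alpha and beta crystallins, −0.20 for the gamma crystallins, −0.13 for the lens fibre genes and −0.45 for the photoreceptor markers.

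Markers of the other tissues that can hold Cryab or beta crystallin RNA were counted in the same fit. Of 8 Mueller glia markers, 1 rose, Aqp4, a water channel gene (0.40 ± 0.06, adjusted p = 0.000369), and 1 fell, Glul, glutamine synthetase (−0.30 ± 0.06, adjusted p = 0.00762), with sums of 4956 to 5063 CPM in the controls and 4639 to 4887 CPM in the knockouts. Of 7 tested pigment epithelium markers, Ttr, transthyretin, rose (0.56 ± 0.06, adjusted p = 2.49e-05) and Rpe65, the retinoid isomerase, fell (−0.28 ± 0.07, adjusted p = 0.0231), with sums of 2885 to 2994 and 2943 to 3035 CPM. Of 8 cornea markers, the keratin genes Krt14 (0.56 ± 0.11, adjusted p = 0.00445) and Krt12 (0.25 ± 0.07, adjusted p = 0.0396) rose and none fell, with sums of 6571 to 6988 and 7419 to 7737 CPM. Of 8 skeletal muscle markers, Myh4, a fast myosin gene, rose (0.54 ± 0.09, adjusted p = 0.00173), with sums of 2824 to 4154 and 3818 to 4340 CPM. At edgeR's unadjusted p under 0.05 were 7 muscle markers, not all in the same direction, and the median log2 fold change of that list was 0.27. The counts were 4 for Mueller glia (median 0.090), 5 for pigment epithelium (−0.15) and 3 for cornea (0.14). Rpe65 was lost without wild type replicate 2 or knockout replicate 1 or 2 (adjusted p = 0.106, 0.102 and 0.128), and Krt12 without any library other than wild type replicate 3 (0.0779 to 0.170). With sex modelled, Aqp4 and Ttr passed (0.0290 and 0.00338) and the other 5 did not. Errors here are SE with 3 libraries per group, adjusted p-values are edgeR's, and the part of these tissues in the crystallin values was not tested.

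The genes whose levels tracked the mean of the members most closely over the 6 libraries were sought among 10994 genes. Likeness was Pearson's r of log2 CPM, as a description with no test, since the 6 points share their depth and scaling. The closest was Gja3, which encodes connexin 46 of lens fibre gap junctions (r = 0.982), followed by Carhsp1 (0.974), Max (0.963), Brwd3 (0.962), Gpr137b (0.961), Nnt (0.957), Ephb1 (0.955) and Fbxo38 (0.955). Gja3 stood at 72.8, 80.6 and 94.8 CPM in wild type, against 75.8, 76.7 and 68.4 CPM, with its highest value in wild type replicate 3, as for the members. Among the members themselves, r was highest for Cryab and Crybb2 (0.993), 0.956 for Crybb1 and Crybb3, and −0.0056 for Crybb1 and Cryab. These r pool both genotypes, so a difference between genotypes enters them. Within wild type, Crybb1 (5232, 5317 and 5880 CPM) and Cryab (7010, 7549 and 8747 CPM) rose together from replicate 1 to replicate 3. In knockout, Crybb1 was highest in replicate 2, where Crybb3 was lowest.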

How the data were processed

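Whole-eye total RNA of mice at postnatal day 21 was measured in 6 libraries, 3 wild type and 3 BC027072 knockout. The submitters' processing notes list the build mm9 and the tools TopHat2 (2.0.12), Cufflinks (2.2.1) and Cuffdiff (2.2.1), without their roles. For every gene and isoform of a library, the authors deposited estimated counts of fragments and FPKM, per the file headers, with a comparison that holds p-values and q-values. Estimated counts are not scaled, 98.5% of the gene values are whole within 1e-06, and they were rounded. The table numbers libraries from 0 and the labels from 1, so replicate numbers only name libraries. For 7 genes and 12 isoforms the estimate had failed, and they were left out.

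Genes were tested over the whole table with the quasi-likelihood F test of edgeR 4.0.16 in R 4.3.3. TMM scaling was used, low genes were removed by filterByExpr at a count of 10 and a total of 15, and p-values were Benjamini-Hochberg adjusted over all 14919 genes tested. Isoforms with a mean FPKM of at least 1 were tested in the same way. SEs were derived from the fold change and its F statistic. Alternatives used DESeq2 1.42.0, limma 3.58.1, other scalings and filters, a replicate block, sex of the library (female above 100 Xist fragments) and leaving out libraries. The edgeR fit was tested on simulated data. The members, lists and tests were chosen with earlier results of these data known. Named genes are the members, BC027072, up to 3 called genes of each list with the smallest p or else the 1 with the smallest p, and the 8 genes most like the members with a mean of at least 10 CPM. Genes named outside this rule are said to be so. A gene that this rule names among the photoreceptor markers is not reported here.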

Additional observations from a re-analysis of the deposited data

How the results depend on the processing

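Each member had at least 22734 fragments in a library, so counting error was small beside the spread between libraries. Over 19 alternatives Crybb1 and Crybb3 stayed below wild type, with log2 fold changes of −0.39 to −0.28 and −0.33 to −0.19. The count of 2 members lower became 1 with limma on log2 CPM, where Crybb3 had an adjusted p of 0.0950, and 0 with limma on FPKM in 3 forms (pseudocount 1, pseudocount 0.1 and no filter), with sex as a covariate and in the Xist-positive libraries alone, an alternative chosen after seeing the data. With 1 library left out it was 1 to 2. No member was called higher under any alternative. The 431 genes higher in the knockout became 723 with library totals alone, 10, 6 and 9 with limma on FPKM in the 3 forms, 91 with sex, 96 in the Xist-positive libraries and 271 to 425 with 1 library left out. The 500 lower genes became 3, 3 and 5 with limma on FPKM, 144 with sex, 149 in the Xist-positive libraries and 315 to 460 with 1 library left out. The cause was not tested.

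Of the 6 uncalled members, Cryaa stayed below 0 under all 19 alternatives (−0.26, with limma on FPKM, to −0.046), and the other 5 changed sign under some. With library totals alone Cryba1 was 0.024, Cryba2 0.025 and Cryba4 0.0021, and Cryba2 was 0.0039 with sex and 0.0017 in the Xist-positive libraries. With 1 library left out the range was −0.018 to 0.15 for Cryab, −0.11 to 0.040 for Cryba1, −0.085 to 0.030 for Cryba2, −0.11 to 0.026 for Cryba4 and −0.032 to 0.12 for Crybb2. As a percent of summed FPKM, which weights short transcripts more by construction, the 8 members made up 16.7% in wild type and 16.8% in knockout. The log2 ratio of Cryaa to Cryab, knockout minus wild type, was −0.18 in fragments and −0.28 in FPKM. The share without mitochondrial genes gave no value, because no gene in the table is named mt-. The deviations of same-numbered libraries were weakly correlated (r = 0.13, 0.066 and −0.049 across genes). Libraries of unlike number had r of −0.17 to 0.094. Values this weak do not show whether the numbers pair samples. With the replicate block 2 members were lower, and 558 genes higher and 611 lower.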
